A study of Homo sapiens with 3 samples.

Results

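Follistatin, activins and the BMP arm of transforming growth factor-beta (TGF-beta) signaling were followed in HCC-LM3, an adherent human hepatocellular carcinoma (HCC) line that the labels describe as adenocarcinoma with epithelial morphology. The cells were incubated for 48 h with 20 μM cyclopamine, which blocks the Hedgehog (Hh) receptor component SMO, with 20 μM GANT61, an inhibitor of the Gli transcription factors, or with the vehicle DMSO. Each condition was read on a single Illumina HumanHT-12 v4 BeadChip, so every difference below compares 1 array with another, has no replicate check and carries no p-value. The 10 genes were described by all of their probes, which number 13 of the 47319 on the array, and the list was chosen on the values of these arrays, because FST lay in opposite directions from DMSO with the 2 compounds. The values that chose it are therefore given as a description.

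Follistatin, the product of FST, is a secreted protein that binds activins and holds them away from their receptors, and it binds some BMPs more weakly. Activins are dimers of inhibin beta subunits and signal through type II and type I receptors to SMAD2 and SMAD3, whereas BMPs signal to SMAD1, SMAD5 and SMAD9. SMAD6 and SMAD7 are induced by these pathways and dampen them, and the ID genes, which encode inhibitors of basic helix-loop-helix factors, are classical BMP targets. In the liver, activin restrains hepatocyte growth and follistatin relieves that restraint, and BMP6 controls iron through hepcidin.

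The stretches upstream of the annotated starts of FST, FSTL3, SMAD6 and ID1 are shown because these genes had 4 different patterns over the arrays. The windows are the 250 bases before the start, from RefSeq on GRCh38.p14, and all 4 lie on the plus strand, FST at chr5:53480379-53480628, FSTL3 at chr19:676142-676391, SMAD6 at chr15:66701986-66702235 and ID1 at chr20:31605039-31605288. Capitals mark matches on either strand to the Gli consensus GACCACCCA with any base in its middle (GACCNCCCA), the Smad palindrome GTCTAGAC, the GC-rich Smad elements GGCGCC and GGAGCC, and the TATA box TATAAA.
FST: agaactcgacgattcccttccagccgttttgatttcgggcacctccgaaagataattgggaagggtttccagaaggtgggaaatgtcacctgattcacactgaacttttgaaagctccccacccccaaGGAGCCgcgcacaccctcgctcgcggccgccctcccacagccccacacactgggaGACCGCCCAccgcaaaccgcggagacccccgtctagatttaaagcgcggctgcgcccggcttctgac
FSTL3: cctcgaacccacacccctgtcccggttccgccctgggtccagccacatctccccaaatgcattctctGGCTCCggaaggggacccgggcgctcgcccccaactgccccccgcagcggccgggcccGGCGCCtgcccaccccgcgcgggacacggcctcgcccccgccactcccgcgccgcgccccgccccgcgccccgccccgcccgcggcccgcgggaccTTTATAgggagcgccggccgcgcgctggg
SMAD6: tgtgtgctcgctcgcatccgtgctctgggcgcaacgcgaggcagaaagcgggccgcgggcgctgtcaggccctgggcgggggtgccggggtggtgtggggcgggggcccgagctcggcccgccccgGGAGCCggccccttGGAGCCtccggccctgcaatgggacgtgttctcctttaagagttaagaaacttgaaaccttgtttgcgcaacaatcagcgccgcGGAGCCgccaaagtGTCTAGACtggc
ID1: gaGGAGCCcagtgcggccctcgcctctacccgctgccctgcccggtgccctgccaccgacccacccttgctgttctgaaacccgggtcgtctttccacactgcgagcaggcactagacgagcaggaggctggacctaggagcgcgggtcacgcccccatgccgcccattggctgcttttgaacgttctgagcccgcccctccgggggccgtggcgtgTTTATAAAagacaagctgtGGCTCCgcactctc

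In the FST window the Gli-like match GACCGCCCA lies 67 to 59 bases before the start and differs from the consensus by A5G, counted from 1 at the 5′ end of the motif. Of 35116 promoter windows of this length 0.96% hold such a match and 0.199% hold the exact consensus, which is absent from these 4. The SMAD6 window holds the Smad palindrome 12 to 5 bases before the start, a motif found in 0.182% of all windows. It also holds GGAGCC 3 times, and FST has it 1 time, FSTL3 1 time and ID1 2 times, compared with 30.6% of all windows that have it at all. FSTL3 has 1 GGCGCC (16.4% of all windows). FSTL3 and ID1 have TATAAA on one or both strands close to the start, with the 2 matches of ID1 overlapping. Of all windows 10.7% hold TATAAA at any position, and the share with it close to the start was not counted. These matches describe letters and no binding was measured.

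The intensities were normalized between the arrays by the authors, and the medians over all probes were 47.7 (DMSO), 47.6 (cyclopamine) and 47.6 (GANT61). A probe was taken as above background where its intensity exceeded 63.8, which is 1.5 times the most common value, and 10441 of 20043 genes passed on at least 1 array by their brightest probe. Of 10 measured hepatocyte and HCC markers KRT8, KRT18 and EPCAM were above background on all 3 arrays and ALB barely so (69.6 to 80.0), while AFP, TF, SERPINA1, APOA1, APOA2 and TTR were not. KRT18 and EPCAM lay within 2-fold of DMSO, but KRT8 had 1423 (DMSO), 335 (cyclopamine) and 286 (GANT61). Of 6 fibroblast markers COL1A1 was above background throughout (205, 145 and 74.9) and PDGFRB with DMSO alone (68.3). None of 5 endothelial markers was above background, and of 4 immune markers PTPRC, CD3E and CD14 were not, whereas the lysosomal CD68 was, at 238, 509 and 1032. CD68 was thus higher and KRT8 and COL1A1 lower on the treated arrays that the results below compare with DMSO, and their part in those results was not tested. Of 9 reference genes above background, PPIA and SDHA were themselves at least 2-fold lower than DMSO with both compounds, and YWHAZ with GANT61. With cyclopamine 8 of the 9 lay below 0, and with GANT61 6 did, so this scale is itself uncertain. Their median log2 difference from DMSO was −0.54 (cyclopamine) and −0.73 (GANT61), against 0.03 and 0.02 for all genes. Scaling on them would shift every gene up by these amounts. A log2 difference from DMSO between −0.54 and 0 with cyclopamine, or between −0.73 and 0 with GANT61, thus changes sign under that scaling. Probes of one gene, each paired with the next in brightness, gave an SD of the log2 difference, scaled to a single probe. It was 0.24 to 0.44 for cyclopamine against DMSO and 0.33 to 0.50 for GANT61 against DMSO, depending on brightness. For GANT61 against cyclopamine it was 0.19 to 0.26. This SD, from 3380 probe pairs, covers probes and not cultures, and it is the ± given below.

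FST was lower with cyclopamine and higher with GANT61. Its brighter probe, which the platform pairs with the transcript NM_013409, had intensities of 492 (DMSO), 231 (cyclopamine) and 1305 (GANT61). These are log2 differences from DMSO of −1.09 ± 0.44 and 1.41 ± 0.50, or 2.13-fold lower and 2.65-fold higher. The dimmer FST probe, paired with NM_006350, had 73.3, 69.8 and 261. It gave −0.07 ± 0.36 with cyclopamine and 1.84 ± 0.42 with GANT61, so both probes were higher with GANT61, whereas the lower value with cyclopamine was seen on the brighter probe alone and the dimmer one lay close to the background limit on both arrays. Between the treated arrays FST was 5.65-fold higher with GANT61 by the brighter probe (log2 difference 2.50 ± 0.19) and 3.74-fold higher by the dimmer one (1.90 ± 0.26).

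By their brightest probes, 3 of all 10441 genes (0.0287%) were at least 2-fold from DMSO in opposite directions. These were FST and, the other way round, IGSF5 and PIEZO2. The dimmer FST probe, at −0.07 with cyclopamine, did not meet this rule. The list was chosen on this pattern of FST, so the place of FST in this count and its rank below only describe it. In the difference between GANT61 and cyclopamine, FST stood at rank 12 by measured values, including those of genes under the limit on 1 of the arrays. Scaled on the reference genes, FST kept its directions, at −0.55 with cyclopamine, which is then short of 2-fold, and 2.14 with GANT61. The genes nearest to FST in their pair of differences from DMSO, among 9091 genes above background on all 3 arrays, were DUSP5, a nuclear phosphatase of ERK, ABCB9, a lysosomal peptide transporter, and EMP1, a membrane protein. DUSP5 had 653 (DMSO), 383 (cyclopamine) and 2424 (GANT61), a distance of 0.58 from FST on the log2 scale. The distances of ABCB9 and EMP1 were 0.62 and 0.63. None of these 3 genes was 2-fold lower with cyclopamine, at −0.77 (DUSP5), −0.48 (ABCB9) and −0.54 (EMP1). This likeness rests on 3 arrays and describes them alone.

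**Figure D1:**
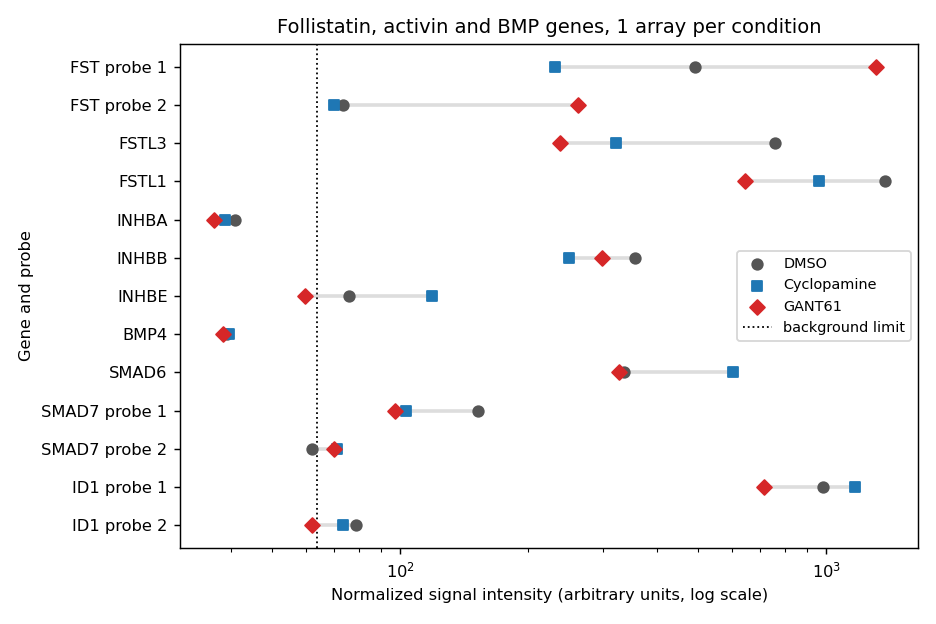
Normalized signal intensity (log axis) of each of the 13 probes on the DMSO, cyclopamine and GANT61 arrays, 1 point per array, with the background limit dotted. The brighter FST probe runs from 231 with cyclopamine to 1305 with GANT61, and INHBA and BMP4 lie under the limit on all 3 arrays.

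The other follistatin-domain genes did not share the FST pattern. FSTL3, a secreted relative of follistatin that also binds activins and myostatin, had intensities of 760 (DMSO), 321 (cyclopamine) and 237 (GANT61). It was lower with both compounds, with log2 differences of −1.24 ± 0.44 and −1.68 ± 0.50, and the treated arrays differed by −0.44 ± 0.19. FSTL1, a secreted glycoprotein that carries a follistatin-like domain, had 1373, 959 and 646. Its log2 differences were −0.52 ± 0.37 with cyclopamine, which is 0.02 on the reference gene scale, and −1.09 ± 0.42 with GANT61. Thus with GANT61 FST was higher while FSTL1 and FSTL3 were lower, and with cyclopamine FST and FSTL3 were lower. On the reference gene scale FSTL3 had −0.71 and −0.95, short of 2-fold with both compounds, and FSTL1 had −0.36 with GANT61. FSTL1 and FSTL3 have 1 probe each, so no second probe bears on their values.

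Of the activin subunits and BMP4, the ligand side of this system, none was 2-fold from DMSO. INHBA, the beta A subunit of activin A, had 41.1, 38.9 and 36.5 with DMSO, cyclopamine and GANT61 and was not above background on any array. BMP4, a ligand of the BMP receptors, had 39.3, 39.6 and 38.4 and was not above background either. INHBB, the beta B subunit of activin B, was above background throughout, with 356, 249 and 298. Its log2 differences of −0.52 ± 0.40 and −0.25 ± 0.47 turn to 0.02 and 0.48 on the reference gene scale, and the treated arrays differed by 0.26 ± 0.24. INHBE, the beta E subunit that is made chiefly in the liver, had 75.7 (DMSO), 119 (cyclopamine) and 59.7 (GANT61), the last under the limit. It was higher with cyclopamine by 0.65 ± 0.24, and with GANT61 at least 1.86-fold lower than with cyclopamine and at least 1.19-fold lower than with DMSO. On the reference gene scale INHBE had 1.18 with cyclopamine and, from the value under the limit, 0.39 with GANT61, which is above DMSO. INHBC, the beta C subunit and neighbor of INHBE on chromosome 12, was not above background, at 46.0, 42.0 and 40.4.

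SMAD6, an inhibitory Smad that acts mainly on BMP signaling, had intensities of 335 (DMSO), 605 (cyclopamine) and 326 (GANT61). It stood 0.85 ± 0.44 higher with cyclopamine and −0.04 ± 0.50 from DMSO with GANT61, so that the treated arrays differed by −0.89 ± 0.19. On the reference gene scale these were 1.39 with cyclopamine and 0.69 with GANT61. SMAD7, which inhibits TGF-beta, activin and BMP signaling alike, had 152, 103 and 97.4 by its brighter probe. The log2 differences were −0.56 ± 0.36 and −0.65 ± 0.42, turning to −0.02 and 0.09 on the reference gene scale. Its dimmer probe had 62.1, 70.9 and 69.9 and so was under the limit with DMSO and barely above it with the compounds. With the values as deposited neither inhibitory Smad passed 2-fold with either compound.

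ID1 had intensities of 980 (DMSO), 1168 (cyclopamine) and 715 (GANT61). The log2 differences from DMSO were 0.25 ± 0.37 and −0.46 ± 0.42, a sign that turns on the reference gene scale (0.28), and the treated arrays differed by −0.71 ± 0.20. The dimmer ID1 probe had 79.0, 73.4 and 62.1, lower with GANT61 than with cyclopamine by at least 1.15-fold.

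Of the 8 listed genes above background, FST and FSTL3 were at least 2-fold lower with cyclopamine and none was 2-fold higher, where 6.31% of all genes were lower and 4.7% higher. With GANT61, FSTL1 and FSTL3 were at least 2-fold lower and FST higher, beside 9.64% and 8.16% of all genes. Between the compounds FST alone passed 2-fold, higher with GANT61 (2.31% of all genes), and none was 2-fold lower (3.4% of all genes). Nearest below the threshold was SMAD6 (−0.89 between the compounds and 0.85 with cyclopamine), and INHBE, with its bound of 1.86-fold between the compounds, cannot be placed on either side. Their median log2 difference was −0.52 with cyclopamine and −0.40 with GANT61, beside 0.03 and 0.02 for all genes, and it turns to 0.02 and 0.33 on the reference gene scale. Because the genes were chosen with these values known, nothing is read from these shares. The 2 comparisons against DMSO share that array.

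**Figure D2:**
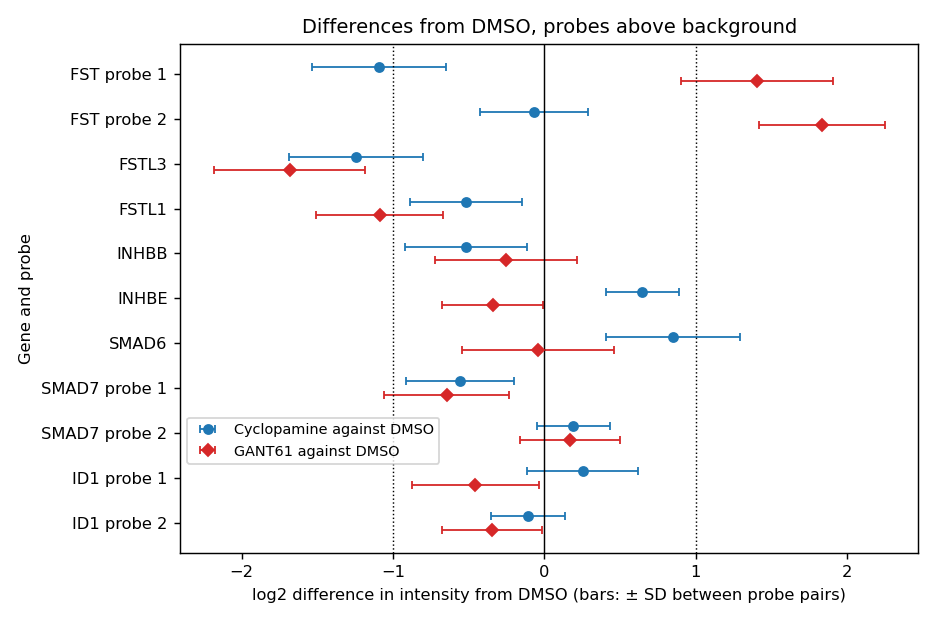
Log2 difference in intensity from DMSO with cyclopamine and with GANT61 for the 11 probes above background, with dotted lines at 2-fold. Bars are ± the SD of a single probe, taken from probe pairs of like brightness. The FST probes give −1.09 and −0.07 with cyclopamine and 1.41 and 1.84 with GANT61, while FSTL3 lies at −1.24 and −1.68.

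**Figure D3:**
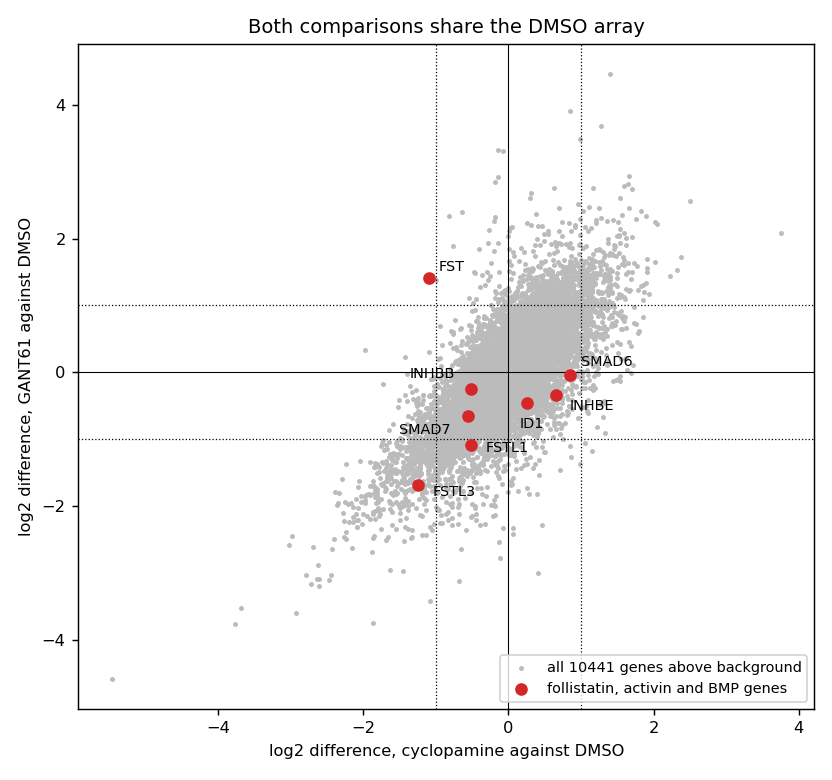
Log2 difference with cyclopamine (x axis) against that with GANT61 (y axis) for 10441 genes, with the 8 listed genes above background in red and dotted lines at 2-fold. FST lies at −1.09 and 1.41, in the upper left, where it is the 1 gene past 2-fold on both axes.

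To place these genes in their pathway, 93 other genes of the TGF-beta superfamily and its signaling chain were listed, of which 88 are named on the array and 47 were above background. With cyclopamine 6 of the 47 were at least 2-fold lower and 2 higher, beside 6.31% and 4.7% of all genes, and with GANT61 7 were lower and 5 higher, beside 9.64% and 8.16%. The median log2 difference was 0.02 with cyclopamine and 0.01 with GANT61, close to that of all genes, and was 0.55 and 0.74 on the reference gene scale. With that scaling 2 were lower and 10 higher with cyclopamine, where 1.69% and 21.5% of all genes were, and 3 were lower and 13 higher with GANT61, where 2.09% and 35.9% of all genes were.

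Among 9 ligands above background, BMP6, the liver ligand that induces hepcidin, had intensities of 626 (DMSO), 487 (cyclopamine) and 840 (GANT61). BMP2, a ligand of the same receptors, had 258, 236 and 253. GDF15, a distant family member and stress-induced cytokine, was higher with both compounds, at 1.76 and 2.30. BMP1, which despite its name is a procollagen protease, was lower with both, at −1.49 and −1.75. GDF11, an activin-like ligand that follistatin binds, had 184, 155 and 298 by its brighter probe, a difference of 0.95 between the compounds. Its other probe had 63.3, 58.9 and 62.4, under the limit on every array. The inhibin alpha subunit INHA was above background with DMSO alone, at 67.2, and AMH, the anti-Müllerian hormone, also with DMSO alone, at 85.7.

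The receptors differed from one another. ACVR1, a type I receptor for BMPs and activins, had intensities of 187 (DMSO), 270 (cyclopamine) and 451 (GANT61) (log2 differences of 0.53 and 1.27). ACVR1B, the type I receptor of activin, had 297, 380 and 649 by its brightest probe (0.36 and 1.13), and its other probes were at or under the limit, one of them at 54.1, 46.1 and 65.9. BMPR2, the BMP type II receptor, went the other way, with 153, 164 and 77.5. This is 0.10 with cyclopamine and −0.98 with GANT61, and the second BMPR2 probe gave 0.18 and −0.75. Between the compounds BMPR2 was 2.11-fold lower with GANT61, and 1.91-fold by the second probe.

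By their brighter probes, the activin type II receptor ACVR2A was near the limit, with 61.8, 83.2 and 70.2, and BMPR1B had 69.0, 106 and 75.8. The second probe of each was under the limit on every array, that of BMPR1B at 46.5, 47.8 and 45.7. ENG (endoglin), a TGF-beta coreceptor, was lower with both compounds, at −1.82 and −1.37. TGFBR2 and TGFBR3, the type II receptor and the coreceptor betaglycan, had −0.16 and −0.39 with cyclopamine and −0.60 and −0.60 with GANT61, which turn positive on the reference gene scale, save for a second TGFBR2 probe at −0.84 with GANT61. The BMP coreceptor RGMB had 0.52 with cyclopamine and 0.40 with GANT61. RGMA, another BMP coreceptor, had 55.0 (DMSO), 60.6 (cyclopamine) and 65.2 (GANT61). It was thus above the limit with GANT61 alone, at least 1.02-fold higher there than with DMSO. AMHR2, the receptor of anti-Müllerian hormone, was not above background with DMSO or cyclopamine (51.0 and 46.4) and had 384 with GANT61, at least 6.03-fold higher. A single probe measures it.

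Of the SMADs that carry the signal, none passed 2-fold with the values as deposited. SMAD5, a BMP Smad, had 851, 1235 and 1350, which is 0.54 and 0.67, and SMAD4, the partner of all of them, had 0.35 and 0.48. On the reference gene scale SMAD5 was at least 2-fold higher with cyclopamine, as were 21.5% of all genes. With GANT61 both SMAD4 and SMAD5 were, as were 35.9% of all genes. SMAD2 and SMAD3, the activin and TGF-beta Smads, had −0.16 and −0.29 with cyclopamine and −0.18 and −0.24 with GANT61, turning positive on the reference gene scale. SMAD9 had 73.7 with DMSO, 75.8 with cyclopamine and a value under the limit with GANT61 by its brighter probe. Its second probe was under the limit on every array, and SMAD1 was not above background.

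The other extracellular and intracellular regulators held both directions. NBL1, a secreted BMP antagonist, had 1363, 576 and 662 on its brighter probe and 1113, 416 and 430 on its second, which for cyclopamine is −1.24 and −1.42 on the log2 scale and for GANT61 −1.04 and −1.37. LTBP3, which anchors latent TGF-beta in the matrix, had 161, 67.8 and 69.3 by its brightest probe, and its other probes were under the limit on every array. CHRDL2, a chordin-like protein, was 1.62 higher with cyclopamine and 0.66 higher with GANT61, from 63.8 with DMSO, which is at the limit. BAMBI, a decoy receptor induced by BMP and TGF-beta signaling, had intensities of 1057 (DMSO), 1854 (cyclopamine) and 1052 (GANT61). Its log2 differences were 0.81 and −0.01, where those of SMAD6 were 0.85 and −0.04. FKBP1A, which binds type I receptors, had −1.63 and −1.56 by its brightest probe, −1.16 and −0.97 by another and −0.40 and −0.29 by a further one, with the last of its 4 at the limit.

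**Figure D4:**
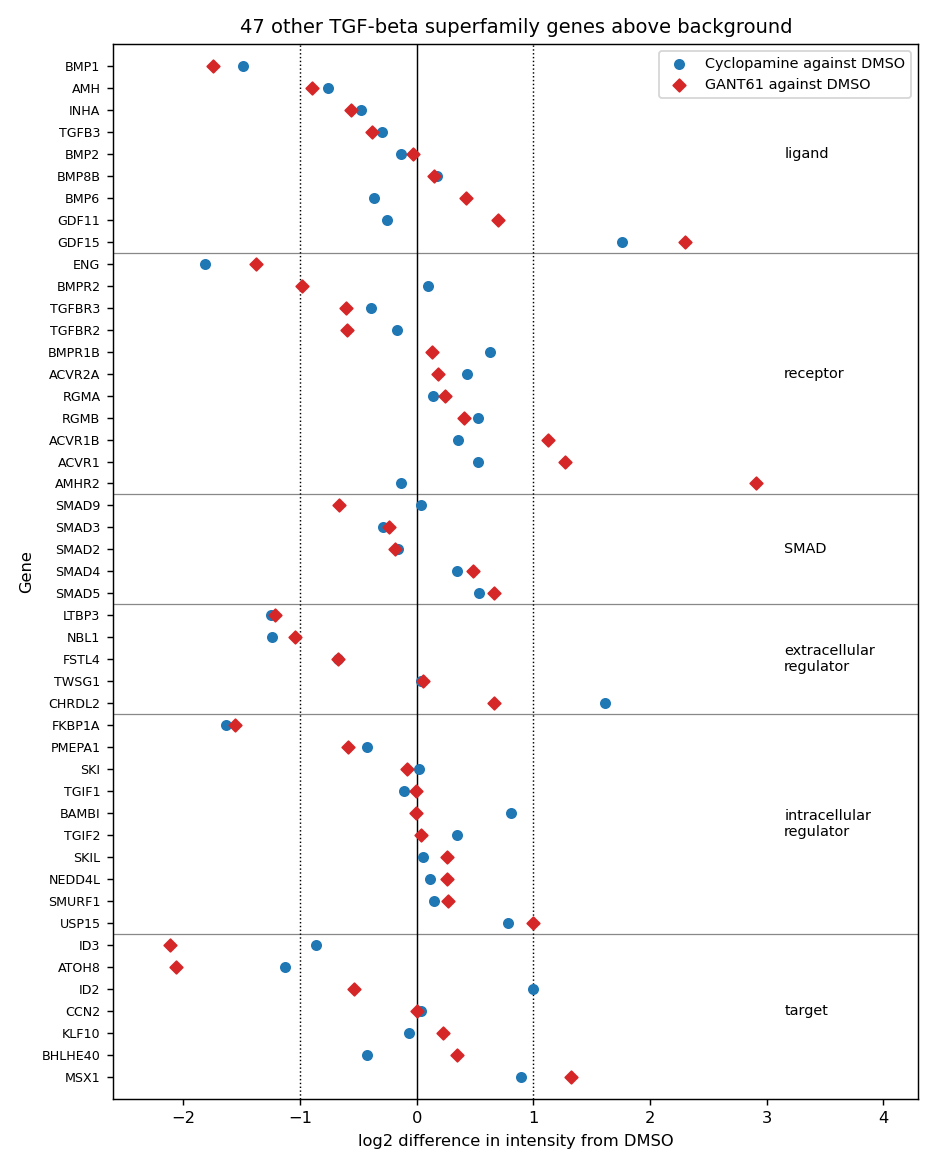
Log2 difference in intensity from DMSO with cyclopamine and with GANT61 for 47 other TGF-beta superfamily genes above background, grouped by role, by the brightest probe, with dotted lines at 2-fold. AMHR2, at 2.91 with GANT61 from a value under the background limit, lies farthest right, and ID3 at −2.11 is among the lowest with GANT61.

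Smad-responsive genes were compared last. Besides ID1, SMAD6 and SMAD7, 7 genes of the list of targets were above background, and of these 10 genes 1 was at least 2-fold lower with cyclopamine, and 2 were lower and 1 higher with GANT61. For all genes the shares were 6.31% lower with cyclopamine and 9.64% lower and 8.16% higher with GANT61, and nothing is read from counts over so few genes. ID2 had 226 (DMSO), 451 (cyclopamine) and 156 (GANT61), and its second probe 170, 359 and 135. It was thus higher with cyclopamine by 1.00, just short of 2-fold, and by 1.07 on the second probe, and it was 2.89-fold lower with GANT61 than with cyclopamine, or 2.67-fold by the second probe. ID3 had 1287, 707 and 298, which is −0.87 with cyclopamine and −2.11 with GANT61, and the treated arrays differed by −1.25. ATOH8, a BMP-responsive helix-loop-helix factor of the liver, had 176 (DMSO), 80.2 (cyclopamine) and 42.2 (GANT61), the last under the limit, a difference of at least 2.76-fold between DMSO and GANT61. ID1, ID2, ID3 and ATOH8 were each lower with GANT61 than with cyclopamine and than with DMSO, although with the reference genes as scale ID1 and ID2 stood above DMSO.

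MSX1, a homeobox factor responsive to BMP, went the other way, with 681, 1263 and 1700, or 0.89 and 1.32. BHLHE40, responsive to TGF-beta among other signals, had 1296, 966 and 1644. KLF10, an early TGF-beta target, had −0.07 and 0.23 by its brightest probe. Another KLF10 probe had intensities of 70.8 (DMSO), 70.8 (cyclopamine) and 58.1 (GANT61), the last under the limit. CCN2 (connective tissue growth factor) had 0.04 and 0.01 on the brighter of its probes and 0.89 and 0.54 on the dimmer. HAMP, which encodes hepcidin, was not above background, at 49.3, 47.8 and 44.8. The difference between GANT61 and cyclopamine had a median of −0.03 over the 7 targets, with 4 of 7 below 0, beside 0.01 and 48.9% below 0 for all genes. With SMAD6, SMAD7 and ID1, which were chosen with their values known, the median was −0.40, with 7 of 10 below 0.

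**Figure D5:**
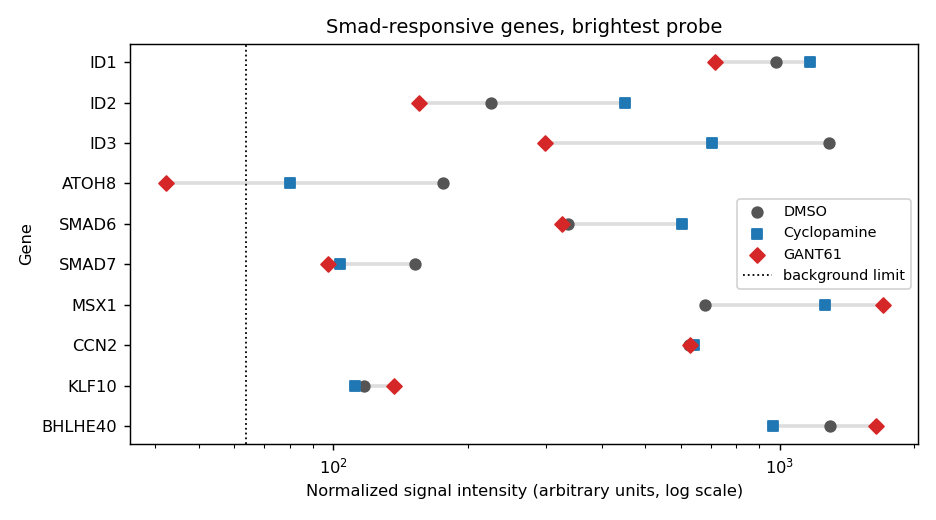
Normalized signal intensity (log axis) of 10 Smad-responsive genes by their brightest probe on the DMSO, cyclopamine and GANT61 arrays, with the background limit dotted. ID1, ID2, ID3 and ATOH8 have their lowest value with GANT61, and MSX1 has its highest there, at 1700.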

How the data were processed

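HCC-LM3 cells from 3 conditions were each profiled on 1 Illumina HumanHT-12 v4 array, assigned by their labels. The authors deposited a linear signal intensity for each of 47319 probes, normalized between the arrays (sorted values of the 3 arrays differ by at most 0.886% at any rank) and not centred. The normalization software was not given in the sources used here. Another table was deposited, whose 6 columns match no sample and were not used here, so detection values were replaced by an intensity limit.

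Probe names came from the platform annotation, updated through gene identifiers of GRCh38.p14. Of the probes, 30110 have 1 symbol, 8 have several and 17201 are unnamed here. Of the named, 30071 matched a gene identifier. CCN2 was matched from an older symbol, and 5 listed pathway genes are not named here. Each gene is represented by its probe with the highest mean log2 intensity. Background was 1.5 times the most common intensity (42.5, in bins of 1). For a gene under the limit on 1 array of a comparison, the fold is a lower bound taken against that limit. Differences are log2 intensities of one array minus another. A 2-fold rule stands in for the DiffScore of the methods. Precision is limited by the number of arrays.

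The SD between probes was taken from the median absolute deviation between probe pairs of one gene, in 5 classes of brightness, scaled to a single probe. The genes and lists were chosen with earlier results of these data known. Named genes are the 10 listed ones, the pathway genes past 2-fold or above background as receptors and SMADs, and the 3 nearest to FST. BMP2, BMP6, GDF11, INHA, AMH, BAMBI, INHBC, HAMP, KLF10, CCN2, BHLHE40, IGSF5 and PIEZO2 were named after their values were seen. Alternatives were normexp correction (offset 50) with quantile normalization, the mean of all probes, dim probes kept in, thresholds of 1.5-fold and 3-fold, scaling on reference genes and centring on the median. Of the 12 reference genes planned, 9 were named and above background. Dim values set to the limit were added after seeing the data. Promoter windows were searched on both strands. Python 3.11.15, numpy 2.4.6, pandas 2.3.3, matplotlib 3.10.9, R 4.3.3 and limma 3.58.1 were used.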

Additional observations from a re-analysis of the deposited data

How the results depend on the processing

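With the mean of all probes, 1 listed gene in place of 2 was 2-fold from DMSO with cyclopamine, FSTL3, since the dimmer FST probe brings FST to −0.58. At 1.5-fold, 4 listed genes passed with cyclopamine, and between the compounds 4 in place of 1 (INHBE, SMAD6 and ID1 besides FST). At 3-fold, 0 passed with cyclopamine and 1 with GANT61, FSTL3, in place of 3. Scaled on the reference genes, 1 passed with GANT61, FST, which was higher, as were 35.9% of all genes. With cyclopamine the 2 that passed on that scale were INHBE and SMAD6, both higher, as were 21.5% of all genes. Of the other pathway genes, 16 passed 1.5-fold and 4 passed 3-fold with cyclopamine, in place of 8. With GANT61 23 and 5 did, in place of 12. The shares of all genes past 1.5-fold and 3-fold are not given here, so nothing is read from the counts at these thresholds. Normexp correction, centring, no filter on dim probes and dim values set to the limit left the counts of listed genes as they were. No value past 2-fold changed sign under any alternative. Of 24 log2 differences of the listed genes (8 genes in 3 comparisons), 16 moved by more than the SD between probes on the reference gene scale. The median taken off every gene there was −0.54 and −0.73 against DMSO, larger in size than any such SD. Between the compounds it was −0.07, smaller than any, so the count of 16 was fixed in advance for any 8 genes. With the mean of all probes 4 moved, and only FST, SMAD7 and ID1, which have a second probe, could move.

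No paired analysis was possible because each condition has 1 array. The single DMSO array serves both comparisons, so what belongs to that culture or array and what both compounds do alike cannot be told apart. INHBA, BMP4, the dimmer probes of SMAD7 and ID1, and INHBE with GANT61 lie at or near background. A difference is not measurable there beyond the limit. The dimmer FST probe lies near background with DMSO and cyclopamine, but had 261 with GANT61.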
